A study of Homo sapiens with 18 samples.

Results

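The regions described here were called by the anti-ETO antibody after miR-130a knockdown and by no other antibody or condition of the study. They were chosen by merging the 4 single-antibody peak lists wherever peaks overlapped by 1 bp or more, and keeping merged regions on chromosomes 1 to 22 and X that held knockdown anti-ETO peaks alone. This gave 3681 of 35620 merged regions (10.3%), termed ETO-knockdown-alone regions below. Each consisted of exactly 1 peak, and together they were 16.3% of the 22592 knockdown anti-ETO peaks on these chromosomes. The calls themselves chose the regions, so their number, width and distance to other calls are descriptions that support no comparison of conditions.

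Kasumi-1 is an established human acute myeloid leukaemia line with the t(8;21) translocation, which fuses RUNX1 (AML1) to RUNX1T1 (ETO), and all cells used here also carried AML1-ETO with a Flag tag. Cells were transduced, either as control or with miR-130a knockdown, and 200000 viable GFP-positive cells per condition were sorted on day 3. CUT&RUN releases DNA fragments around an antibody-bound protein by a tethered nuclease. Each condition had 3 libraries with anti-ETO, 3 with anti-Flag and 3 with mouse IgG, 18 in all, of 75-bp paired reads at a planned 40 M reads per library. The 4 groups used here were thus control anti-ETO, control anti-Flag, knockdown anti-ETO and knockdown anti-Flag. Each was represented by 1 peak list, with 14264, 23162, 22594 and 25961 peaks. The lists gave positions and no read counts, heights or scores. The depth behind a call is unknown, replicate spread within a group cannot be given, and no IgG list was used here. An ETO-knockdown-alone region is therefore a place where 1 list had a call and 3 did not. Whether the signal there was lower in the other groups was not measured. Anti-ETO recognises the ETO part of the fusion and anti-Flag its tag, and which ETO-containing proteins these libraries captured was not tested.

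As background, AML1-ETO keeps the DNA-binding Runt domain of RUNX1, so it reads the RUNX motif. Its ETO part recruits corepressor complexes built on NCoR, HDAC3, TBL1X and TBL1XR1, and on SIN3A with HDAC1 or HDAC2. RUNX1 binds DNA with the partner subunit CBFB, and in blood cells it acts beside ETS, E-box and GATA factors at promoters and enhancers of myeloid genes. The series title names both the targets of miR-130a and TBL1XR1.

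A promoter here is the 300 bases from 250 before to 50 after a gene start listed by RefSeq on GRCh38.p14. The 3 promoters shown first are those under ETO-knockdown-alone regions that held the most RUNX motifs, searched as TGTGGT or TGCGGT on either strand. LOC107984405 (chr11:124718272-124718571, plus strand) had 3 matches, the highest number found. RUFY4, an adaptor of intracellular vesicles (chr2:218069003-218069302, plus strand), and TMIE, a protein of the inner-ear mechanotransduction complex (chr3:46693528-46693827, plus strand), had 2 each and the widest overlapping regions among the promoters with 2. Capitals mark the RUNX matches, which were sought in all 300 bases, also where the called region did not reach.
LOC107984405: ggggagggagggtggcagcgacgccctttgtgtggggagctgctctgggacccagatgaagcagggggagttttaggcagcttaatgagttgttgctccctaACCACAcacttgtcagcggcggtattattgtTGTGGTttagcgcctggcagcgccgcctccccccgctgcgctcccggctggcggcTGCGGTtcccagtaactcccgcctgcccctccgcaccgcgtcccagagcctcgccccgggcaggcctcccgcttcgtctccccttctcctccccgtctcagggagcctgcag
RUFY4: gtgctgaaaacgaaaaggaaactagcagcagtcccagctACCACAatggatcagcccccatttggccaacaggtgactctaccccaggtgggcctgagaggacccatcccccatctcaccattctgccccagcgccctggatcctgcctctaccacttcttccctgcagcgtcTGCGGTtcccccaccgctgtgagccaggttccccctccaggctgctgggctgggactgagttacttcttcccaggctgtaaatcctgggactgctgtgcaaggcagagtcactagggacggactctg
TMIE: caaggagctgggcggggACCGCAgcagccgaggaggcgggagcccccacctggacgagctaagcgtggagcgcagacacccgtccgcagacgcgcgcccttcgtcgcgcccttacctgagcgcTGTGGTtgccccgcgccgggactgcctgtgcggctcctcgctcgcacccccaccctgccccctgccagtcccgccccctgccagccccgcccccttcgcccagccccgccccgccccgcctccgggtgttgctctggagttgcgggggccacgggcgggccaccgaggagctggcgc
The region at LOC107984405 was chr11:124718442-124718679, and it lay 20944 bp from the nearest region of another list. The region at RUFY4 was chr2:218068765-218069195, and its nearest such neighbour was 147505 bp away. At TMIE it was chr3:46693530-46693955, with a neighbour 1271 bp away. Of the 300 bases, the region covered 130 at LOC107984405, 193 at RUFY4 and 298 at TMIE. At LOC107984405 the last marked match lay inside the called region and the earlier ones lay outside it.

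The next 5 promoters belong to the listed genes whose RefSeq start lay under an ETO-knockdown-alone region, and they show what sequence such a call covered. Capitals here mark the bases inside the called region. TBL1X (chrX:9464808-9465107, plus strand) encodes a subunit of the NCoR complex, and HDAC1 (chr1:32291833-32292132, plus strand) encodes a histone deacetylase. TGFBR2 (chr3:30606106-30606405, plus strand, the first of its listed starts) encodes the type II receptor of TGF-beta. CCND3 (chr6:42048639-42048938, minus strand) encodes cyclin D3, and BCL2L1 (chr20:31722819-31723118, minus strand) encodes the survival protein BCL-XL.
TBL1X: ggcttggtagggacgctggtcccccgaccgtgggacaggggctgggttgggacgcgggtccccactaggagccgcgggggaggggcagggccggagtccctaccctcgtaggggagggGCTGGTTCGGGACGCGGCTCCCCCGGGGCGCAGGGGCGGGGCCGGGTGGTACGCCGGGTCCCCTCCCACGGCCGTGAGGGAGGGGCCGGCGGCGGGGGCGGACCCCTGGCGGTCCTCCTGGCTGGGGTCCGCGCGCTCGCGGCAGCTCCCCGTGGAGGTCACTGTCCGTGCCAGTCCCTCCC
HDAC1: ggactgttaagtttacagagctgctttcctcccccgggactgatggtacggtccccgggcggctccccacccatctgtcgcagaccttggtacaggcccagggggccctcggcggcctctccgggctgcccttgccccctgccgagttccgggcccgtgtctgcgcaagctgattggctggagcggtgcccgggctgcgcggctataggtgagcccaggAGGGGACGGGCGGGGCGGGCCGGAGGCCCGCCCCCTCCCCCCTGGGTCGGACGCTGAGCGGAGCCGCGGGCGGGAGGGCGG
TGFBR2: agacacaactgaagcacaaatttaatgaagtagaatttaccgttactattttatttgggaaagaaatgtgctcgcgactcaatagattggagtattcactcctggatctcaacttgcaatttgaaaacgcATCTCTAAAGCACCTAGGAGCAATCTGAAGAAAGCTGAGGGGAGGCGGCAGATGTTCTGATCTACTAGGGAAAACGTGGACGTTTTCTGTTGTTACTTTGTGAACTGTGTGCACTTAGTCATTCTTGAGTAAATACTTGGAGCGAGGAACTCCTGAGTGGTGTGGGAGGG
CCND3: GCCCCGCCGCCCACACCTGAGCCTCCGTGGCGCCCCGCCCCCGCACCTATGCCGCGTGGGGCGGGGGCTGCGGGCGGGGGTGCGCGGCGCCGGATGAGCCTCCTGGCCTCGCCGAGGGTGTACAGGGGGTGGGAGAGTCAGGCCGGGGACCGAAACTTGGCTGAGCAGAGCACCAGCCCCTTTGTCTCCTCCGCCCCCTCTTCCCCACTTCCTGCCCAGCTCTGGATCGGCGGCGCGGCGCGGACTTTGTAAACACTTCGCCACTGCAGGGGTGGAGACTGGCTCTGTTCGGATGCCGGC
BCL2L1: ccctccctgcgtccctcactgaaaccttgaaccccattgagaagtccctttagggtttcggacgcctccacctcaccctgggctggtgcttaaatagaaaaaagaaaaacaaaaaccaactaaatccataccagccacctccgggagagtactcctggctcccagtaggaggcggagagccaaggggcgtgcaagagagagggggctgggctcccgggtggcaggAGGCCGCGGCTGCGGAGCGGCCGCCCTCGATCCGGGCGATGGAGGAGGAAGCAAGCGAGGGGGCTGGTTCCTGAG
The called region covered 182 of the 300 bases at TBL1X, 81 at HDAC1, 170 at TGFBR2, 300 at CCND3 and 75 at BCL2L1. At TBL1X, CCND3 and BCL2L1 its centre lay inside the gene, over 1 kb from any annotated gene end. The starts shown for these genes are thus internal ones. In all, 9 listed genes had a promoter overlapped by an ETO-knockdown-alone region and by no other region with a knockdown anti-ETO call. The other 4 were LDB1, CDKN2C, NCOR1 and NRAS, where the listed start was outside the region. A RUNX match was found in 0 of the promoters of these 9 genes, which says only that neither spelling occurs in those 300 bases.

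The ETO-knockdown-alone regions were narrow. Their widths ran from 174 to 1092 bp, with quartiles at 206, 303 and 389 bp, and they covered 1.17 Mb in all. The other 18911 knockdown anti-ETO peaks had quartiles at 352, 517 and 895 bp and a maximum of 10470 bp. Peaks under 250 bp made up 37.2% of the ETO-knockdown-alone regions and 12.9% of the other knockdown anti-ETO peaks. A wider peak can touch more peaks of another list, so width is not independent of the rule, and no test was made.

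Many of the regions lay beside a call of another list. Gaps here and below were measured to called regions outside this class, termed other called regions. Regions of this class could lie closer to each other. The gap to the nearest other called region was at least 2 bp, had a median of 2300 bp, and was at most 500 bp for 1073 regions (29.1%) and at most 1 kb for 1452 (39.4%). The gaps within 1 kb were most often between 200 and 300 bp, with 363 regions. Among the 1452 close regions, the nearest neighbour was called by all 4 lists in 518 cases (35.7%) and held another knockdown anti-ETO peak in 1042 (71.8%). At the other extreme, 560 regions (15.2%) were over 50 kb from every called region outside this class. By list, the median gap was 8987 bp to control anti-ETO, 4829 bp to control anti-Flag and 8622 bp to knockdown anti-Flag.

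**Figure D1:**
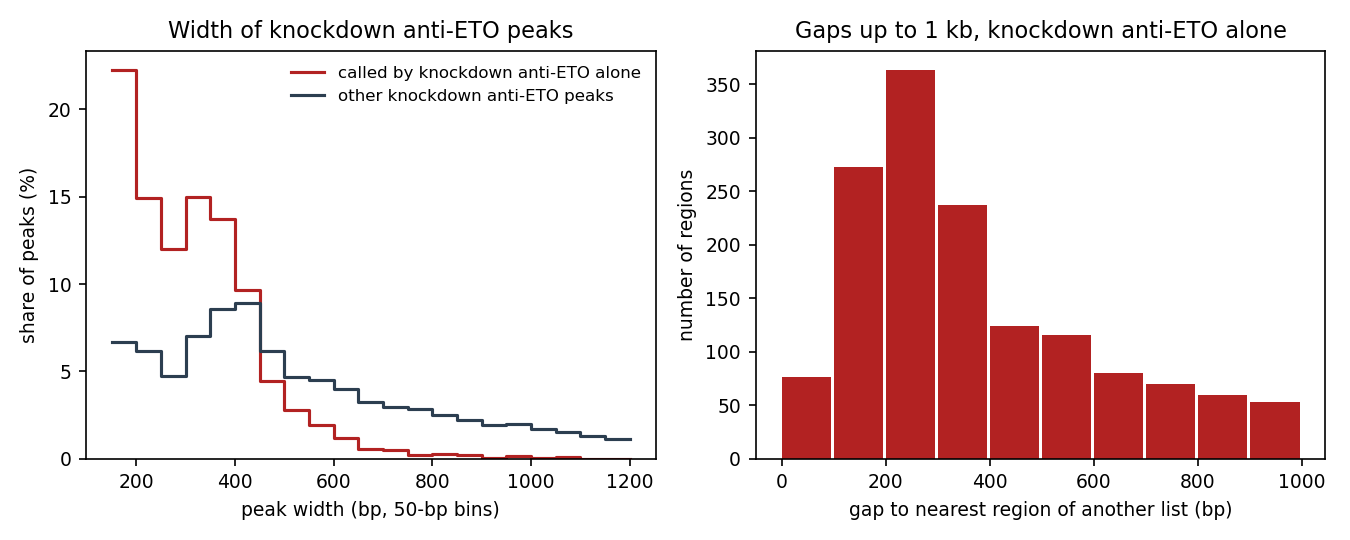
Left: width of knockdown anti-ETO peaks in 50-bp bins as the share of each class, for ETO-knockdown-alone regions and for all other knockdown anti-ETO peaks. Right: number of ETO-knockdown-alone regions by gap to the nearest region of another list, up to 1 kb in 100-bp bins. The regions alone were shifted to widths under 450 bp, and the commonest gap was 200 to 300 bp with 363 regions.

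Near the limit of the rule, 7 ETO-knockdown-alone regions lay 10 bp or less from another called region. On the other side, 11 knockdown anti-ETO peaks were left out because their largest overlap with another list was 1 to 10 bp, and 234 had a largest overlap under 100 bp. None of the 5 derived lists of the authors, which hold sites called by both antibodies, overlapped an ETO-knockdown-alone region. That follows from the rule.

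The share of ETO-knockdown-alone regions at gene boundaries was somewhat below that of the other knockdown anti-ETO regions and far above that of regions called by knockdown anti-Flag alone. The centre of 1713 of them (46.5%, 95% Wilson interval 44.9 to 48.2) was within 1 kb of the start or end of an annotated gene. For the 17780 regions that joined a knockdown anti-ETO peak with a peak of any other list, the share was 51.6%. The difference of -5.07 percentage points (95% interval -6.84 to -3.30) passed a two-sided Fisher's exact test over regions (adjusted p = 3e-08, Benjamini-Hochberg over 7 location comparisons). Regions called by knockdown anti-Flag alone, 7945 in number, had a share of 14.5%. There the ETO-knockdown-alone regions stood 32.0 points higher (30.2 to 33.8, Fisher's exact test, adjusted p = 2.2e-287). These tests compare classes of regions from 1 set of lists. Neighbouring regions are not independent, and intervals and p-values cover counting error only.

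The size of the first difference depended on how regions were drawn. It was -2.39 points with 2.5 kb as near, -9.52 with peaks up to 500 bp apart joined, and -11.1 with all 4 lists shortened to one length by peak width. The direction held in these 3.

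A further comparison was with the 497 regions called by control anti-ETO alone, the same antibody in the other condition. Of these, 55.9% were within 1 kb of a gene boundary, against 46.5% of the ETO-knockdown-alone regions, a difference of -9.40 points (-13.99 to -4.72, Fisher's exact test, adjusted p = 0.0001). It did not pass at 2.5 kb (-3.89 points, -8.18 to 0.628, Fisher's exact test, adjusted p = 0.092) and was -21.8 points with all lists of one length.

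Away from gene boundaries, 38.9% of the ETO-knockdown-alone regions lay inside a gene body and 14.6% (536 regions) outside genes. The share outside genes was 14.1% for regions with knockdown anti-ETO and any other list, and the difference of 0.427 points (-0.791 to 1.71) did not pass (Fisher's exact test, adjusted p = 0.5). By the same exact test it was past the threshold, in the same direction, with peaks up to 500 bp apart joined (2.45 points, adjusted p = 0.0018) and with all lists of one length (1.80 points, adjusted p = 0.047). Regions of knockdown anti-Flag alone lay outside genes in 27.8% of cases, and the ETO-knockdown-alone regions differed from them by -13.2 points (Fisher's exact test, adjusted p = 9.7e-58).

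**Figure D2:**
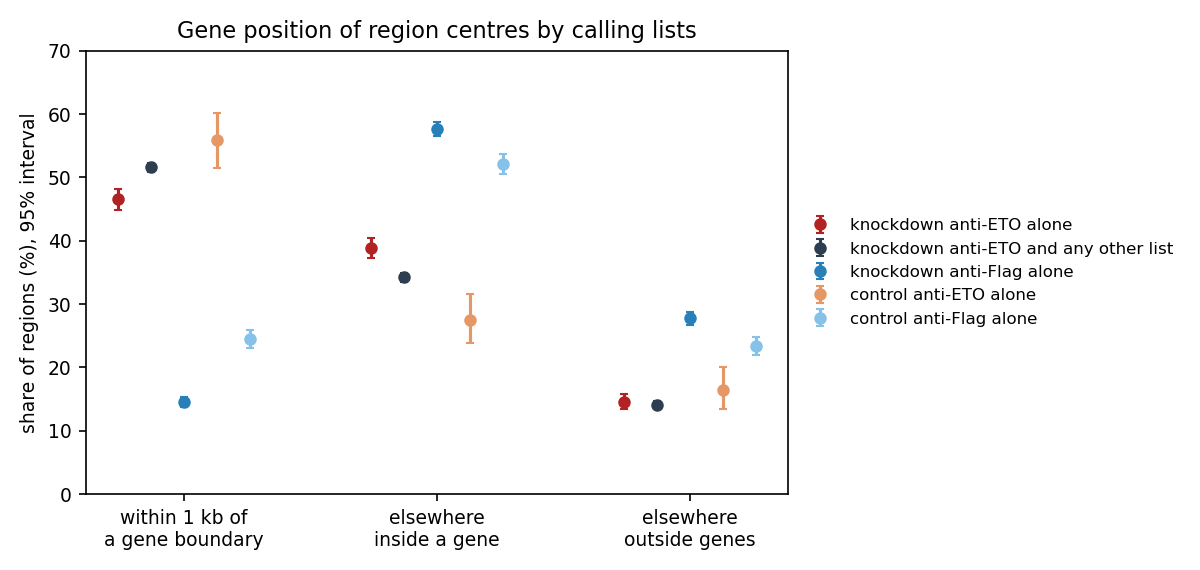
Share of region centres within 1 kb of a gene boundary, elsewhere inside a gene and elsewhere outside genes, for 5 classes of regions named by the lists that called them. Points are percentages of each class and bars are 95% Wilson intervals over regions. ETO-knockdown-alone regions (46.5% at boundaries) sit below knockdown anti-ETO with any other list (51.6%) and control anti-ETO alone (55.9%). They sit far above knockdown anti-Flag alone (14.5%).

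Gene starts, unlike boundaries, could be read with their strand. RefSeq starts with strand were listed on 22 of the 23 chromosomes, where 3602 ETO-knockdown-alone regions lay. Of these, 1322 (36.7%, 35.1 to 38.3) had their centre within 1 kb of a listed start, and 696 (19.3%) within 250 bp. The median distance to a start was 3063 bp. The corresponding shares within 1 kb were 43.4% for knockdown anti-ETO with any other list, 46.0% for control anti-ETO alone, 16.3% for control anti-Flag alone and 4.69% for knockdown anti-Flag alone. Relative to starts, the regions leaned downstream. Of those within 1 kb, 763 were downstream and 559 upstream, and the fullest 250-bp bin, just downstream of the start, held 437 regions (12.1%). All merged regions leaned the same way, with 56.7% of those within 1 kb downstream against 57.7% of the ETO-knockdown-alone regions. The share was 56.9% for knockdown anti-ETO with any other list and 54.3% for knockdown anti-Flag alone. For control anti-ETO alone it was 55.0%, and for control anti-Flag alone 56.1%. The lean was thus not particular to this class.

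**Figure D3:**
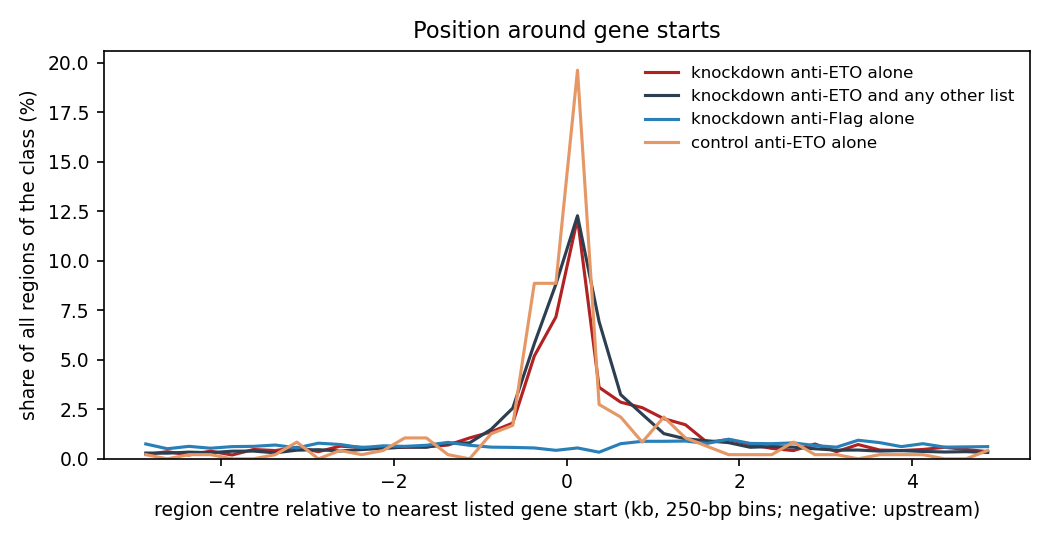
Position of region centres around the nearest listed gene start, from 5 kb upstream (negative) to 5 kb downstream in 250-bp bins, as the share of all regions of each class. The 2 knockdown anti-ETO classes peak at nearly the same height just downstream of the start, 12.1% for ETO-knockdown-alone regions and 12.3% for those shared with another list. Control anti-ETO alone peaks higher in the same bin, at 19.6%, while knockdown anti-Flag alone shows no peak.

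Regions close to a call outside this class and regions far from all such calls both reached gene boundaries. Of the 1452 within 1 kb of another called region, 52.3% were near a boundary, against 42.8% of the 2229 farther away. The regions of knockdown anti-ETO with any other list, at 51.6%, lay between these. Among the 560 over 50 kb from any called region outside this class, the share was 60.7% (56.6 to 64.7). By width, it was 55.0% in the narrowest quartile (174 to 206 bp), 43.8% and 40.9% in the next ones, and 46.2% in the widest (390 to 1092 bp). These splits rest on the rule's own measures and are given as descriptions.

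ETO-knockdown-alone regions lay on the most gene-dense chromosomes less often than the other knockdown anti-ETO regions or the regions of knockdown anti-Flag alone. Chromosomes 16, 17, 19 and 22 held 945 of them (25.7%), against 31.7% of the regions with knockdown anti-ETO and any other list (-6.02 points, -7.57 to -4.43, two-sided Fisher's exact test, adjusted p = 5.3e-13). Control anti-ETO alone had a lower share still, 14.1% (11.3 to 17.4), which was not tested against them. For knockdown anti-Flag alone the share was 46.5%, a difference of -20.8 points for the ETO-knockdown-alone regions (Fisher's exact test, adjusted p = 2e-103). With all lists of one length the first difference was -2.52 points (Fisher's exact test, adjusted p = 0.042). Chromosome 1 held the most regions, 441 (12.0%).

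The X chromosome had the highest share of its merged regions in this class. It held 127 ETO-knockdown-alone regions, which were 21.4% of all merged regions there, against 10.3% over all chromosomes. As a share of their class this was 3.45% (2.91 to 4.09), compared with 1.86% of regions with knockdown anti-ETO and any other list, 0.340% of knockdown anti-Flag alone and 6.84% of control anti-ETO alone. Chromosome 7 followed with 17.1% of its merged regions and chromosome 2 with 15.6%. Chromosome 8 was lowest with 5.21%. Single chromosomes were looked at after their values were seen and were not tested. The fullest 1-Mb bins were on chromosome 19, with 18 regions between 12000001 and 13000000, and the 2 neighbouring bins from 7000001 to 9000000 on chromosome 17, with 17 each. In the same order, these bins also held 96, 58 and 30 regions of knockdown anti-ETO with any other list. Over all chromosomes the 2 classes numbered 3681 and 17780.

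**Figure D4:**
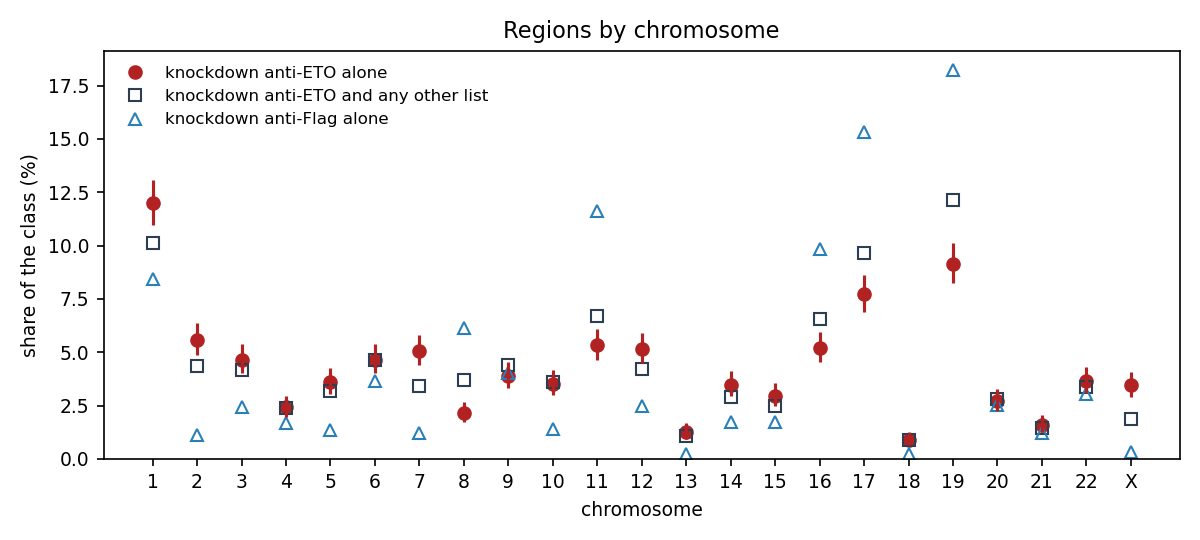
Share of each class of regions on each chromosome, for ETO-knockdown-alone regions (filled circles with 95% Wilson intervals), knockdown anti-ETO with any other list (squares) and knockdown anti-Flag alone (triangles). Chromosome 19 holds 9.13%, 12.1% and 18.2% of the 3 classes, and X holds 3.45%, 1.86% and 0.340%.

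Sequence could be read only at listed promoters, and 791 of the regions overlapped one. Motifs were sought in all 300 bases of a promoter, also outside the overlap, which could be as short as the 13 bases at NRAS. A match is therefore not always inside a called region. Promoters under ETO-knockdown-alone regions, and under no other region with a knockdown anti-ETO call, numbered 898 from 818 genes. RUNX motifs were less frequent in them: 137 of 898 (15.3%, 13.1 to 17.8) had a match, against 1879 of 8477 (22.2%, 21.3 to 23.1) under regions shared with another list. The difference was -6.91 points (-9.29 to -4.26, two-sided Fisher's exact test, p = 8.5e-07). Promoters of one gene can overlap and lie under the same region, so the promoters counted are not independent. With the first listed start of each gene alone, the difference was -7.07 points (-9.73 to -4.06, Fisher's exact test, p = 8.2e-06). The RUNX difference did not pass when both classes were limited to regions of 200 to 500 bp (-3.30 points, -6.61 to 0.323, Fisher's exact test, p = 0.075). Among all 34961 listed promoters the share was 19.6%, and among those under no called region it was 18.9%. Most promoters with a match had 1, in 128 cases; 8 had 2 and 1 had 3.

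The base composition of the 2 promoter classes was close, with a mean GC content of 66.1% and 66.8% and a median of 28 and 29 CG dinucleotides. Both stood above all promoters, at 57.6% and 14. With promoters of at least 20 CG alone, the RUNX difference was -6.49 points (Fisher's exact test, p = 3.6e-05).

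Other motifs were counted without a test. The ETS core CGGAAG was found in 39.3% (36.2 to 42.5) of promoters under ETO-knockdown-alone regions, 33.5% of those under shared regions and 19.4% of all promoters. The CREB site TGACGT was found in 14.1% (12.0 to 16.6), 10.7% and 7.97%. The E-box CAGCTG was at 14.6%, 16.7% and 18.0%, and the SP and KLF box GGGCGG at 73.7%, 76.6% and 45.0%. CCAAT, bound by NFY, was nearly level at 34.2%, 35.2% and 34.6%. The site of GATA factors, AGATAA, was at 4.57%, 3.55% and 10.3%, and the AP-1 site TGANTCA at 4.34%, 3.69% and 7.68%. Matches were sought on both strands, the SP and KLF box and the ETS core may share bases with other sites, and a match is no measure of binding.

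**Figure D5:**
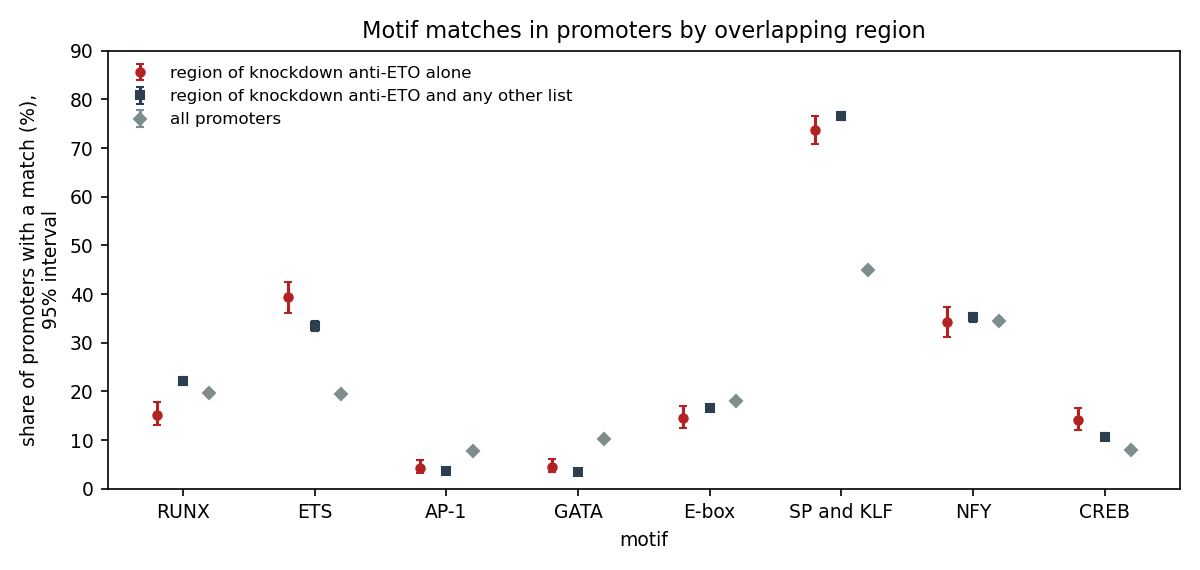
Share of promoters with at least 1 match to each of 8 motifs, for promoters under ETO-knockdown-alone regions, under regions of knockdown anti-ETO and any other list, and for all listed promoters, with 95% Wilson intervals. RUNX matches are at 15.3%, 22.2% and 19.6%, and ETS matches at 39.3%, 33.5% and 19.4%.

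Genes were then counted as having a region if one lay in the RefSeq gene body or within 10 kb. Of 19970 protein-coding genes, 3931 (19.7%) had an ETO-knockdown-alone region and 11665 (58.4%) had a called region of any class. Most of the 3931, 3109 genes, had 1, while 643 had 2 and 179 had 3 or more. For 702 of them (17.9%) no other called region lay at the gene. The listed genes came from fixed lists of gene families, pathways and reported gene groups, such as corepressors, cell-cycle genes and AML1-ETO targets. These lists were chosen with earlier results of these data known. Of all 135 listed genes, 45 (33.3%) had an ETO-knockdown-alone region. Since 116 of the 135 had a called region of any class, well above the 58.4% of all genes, the share of 33.3% is read as no more than a count.

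Of the corepressor genes, 7 of 11 had an ETO-knockdown-alone region, beside 19.7% of all protein-coding genes, and all 11 had a called region of some class, beside 58.4%. At TBL1XR1, the NCoR subunit named in the series title, the region was chr3:177198076-177198552, 477 bp wide, in the gene body and at -594 bp from the listed start, that is, upstream. It was the sole called region at TBL1XR1, and the nearest one outside this class, a control anti-Flag peak, was 158733 bp away. TBL1X, its paralogue on the X chromosome, had 2 regions and no other call. One, chrX:9464926-9465185, covered the listed start printed above, and the other, chrX:9465458-9465640, began 400 bp downstream. Their nearest called region outside this class was 1537238 bp away.

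HDAC1 had 2 such regions among 4 called regions. One, over its listed start (chr1:32292052-32292273), was 44127 bp from any called region outside this class. The other lay 890 bp past its body. NCOR1, the scaffold of the complex, had a region 21 bp downstream of its start (chr17:16215329-16215513). SIN3A, the scaffold of the SIN3 complex, had 2 among 6 called regions, the nearer 111 bp downstream of a listed start and 177 bp from a region of all 4 lists. RCOR1, the CoREST scaffold, had 1 of 4 in its body, and GPS2, a small NCoR subunit, had 1 of 4 in its flank, 3615 bp from the body. HDAC2, HDAC3 and SIN3B had called regions and no ETO-knockdown-alone region.

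Of the RUNX and ETO family genes, 5 of 7 had such a region, each time among many others. A called region of any class lay at 6 of the 7. Over all protein-coding genes the 2 shares were 19.7% and 58.4%. RUNX1 had 1 of 20 called regions (chr21:35028758-35028939), inside the body and 233 bp from a region of all 4 lists. RUNX3 had 1 of 12, RUNX2 1 of 7 and CBFB, the shared partner subunit, 2 of 14. CBFA2T3, the ETO paralogue that acts in the same complexes, had 1 of 25. Of those with a listed start, the closest was at RUNX3, 1342 bp downstream.

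Among the DNA-binding and bridging partners of AML1-ETO, 5 of 12 genes had one, beside 19.7% of all protein-coding genes. A called region of any class lay at 11 of the 12, beside 58.4%. GATA2, a regulator of blood stem and progenitor cells, had its sole called region here (chr3:128487754-128488135), 395 bp downstream of a listed start. The nearest called region outside this class, of control anti-Flag, was 102784 bp away. ERG, an ETS factor, had 3 of its 4 called regions in this class, of which chr21:38476083-38476428 and chr21:38477204-38477577 lay 204 and 280 bp from the nearest other called region, one called by both antibodies after knockdown. LDB1, the bridging protein of the LMO2 complex, had a region in its body at -121 bp from a listed start, where a minus sign means upstream. LYL1, a bHLH factor, had 2, both in the flank, and PRMT1, an arginine methyltransferase, had 1 in the body. TBL1XR1, TBL1X and GATA2 were the 3 of the 45 listed genes with no called region other than these. Of the 60 distinct regions at listed genes, 29 were within 1 kb of another called region.

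Myeloid regulators had a share near the background, 3 of 17 (17.6% against 19.7%). GFI1, a transcriptional repressor, had 2 of 4 called regions, EGR1 had 1 of 2, and SPI1, which encodes PU.1, had 1 of 6 (chr11:47376782-47377178, in the body). Granule protein genes had 2 of 10, at LYZ and AZU1. Of the 16 genes reported elsewhere as AML1-ETO targets, 4 had one, SELPLG, BCL2 and JAG1 among them. A called region of any class lay at 13 of the 17 regulators, 7 of the 10 granule genes and 15 of the 16 targets. Over all protein-coding genes that share was 58.4%. At JAG1, a Notch ligand, the region (chr20:10662948-10663211) was 163 bp from a knockdown anti-Flag peak.

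In the TGF-beta pathway, which acts through receptors, SMAD factors and their inhibitors, 5 of 19 genes had a region, beside 19.7% of all protein-coding genes. A called region of any class lay at 17 of the 19, beside 58.4%. Among receptors, TGFBR2 had the region over its first listed start (chr3:30606236-30606455), with a control anti-Flag peak 1633 bp away. ACVR1B had 2, of which one lay 251 bp upstream of the start. SMAD3, a signal transducer, had 1 in the body. SKI, a SMAD corepressor, had 2 among 24 called regions, and SMURF1, a ubiquitin ligase of the pathway, had 1 of 2.

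Among cell-cycle genes the number was 4 of 14: CDKN2C with 2 regions, and CCND3, CDKN1B and CDKN2D with 1 each. A called region of any class lay at 12 of the 14. Over all protein-coding genes the 2 shares were 19.7% and 58.4%. CCND3 had 17 called regions, of which chr6:42048578-42048965 was the one of this class. In the BCL2 family the number was 5 of 11, and 10 of the 11 had a called region of any class. BCL2L11, which encodes the death-promoting protein BIM, had 2 upstream of its start among 3 called regions. BCL2L1 had 1 over a listed start, while BAK1, BCL2 and BID had 1 each. Genes recurrently mutated in t(8;21) leukaemia had 6 of 20, at CSF3R, NRAS, ASXL1, ASXL2, ZBTB7A and STAG2, and 17 of the 20 had a called region of any class. Of the 4 miR-130 family genes, 3 had a called region and 0 had one of this class.

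The genes with the most ETO-knockdown-alone regions formed a few groups, because regions of neighbouring genes were partly the same. COMMD3, BMI1 and their read-through gene had 5 distinct regions, of which 4 were counted for each of them. COMMD3 had 4 of 6 called regions in this class, and BMI1 and the read-through gene 5 of 7 each. One of the 4 was chr10:22322054-22322595, whose near edge was 98 bp downstream of a listed start of BMI1, a Polycomb protein that supports stem-cell self-renewal. ARHGAP4, RENBP and HCFC1 on the X chromosome had 10 distinct regions between positions 153903598 and 153977265, and RENBP had 1 in common with ARHGAP4 and 3 with HCFC1. Counted over body and 10-kb flank, these were 5 of 11, 4 of 9 and 5 of 11 called regions. Some of them lay in neighbouring genes, such as AVPR2 and NAA10. HCFC1 encodes a chromatin-bound host-cell factor. BCORL1, a corepressor on X, had 5 of 6 called regions, and 4 of the 5 lay between 129981001 and 129983971 around its listed starts. PNPLA2, a triglyceride lipase on chromosome 11, had 4 of 18 called regions, all in its flank. RHOU, a small GTPase, had 6 of 9 called regions, and 5 of the 6 lay within 1 kb of a 5S ribosomal RNA gene. LOC102724250 had 6 of 8 called regions, and 5 of the 6 lay within 1 kb of pseudogenes of mitochondrial genes. Both are places where near-identical copies make the mapping of short reads uncertain.

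Of the 10 widest regions, 7 were within 1 kb of a gene boundary and 6 covered a listed start. The widest of all was chr17:2337104-2338195, 1092 bp, at SGSM2. The others included those at TP53INP2 with LOC105372599 (1066 bp) and at PSMG4, a proteasome assembly chaperone (1057 bp). ATP2C1, a Golgi calcium pump (975 bp), KDM3A, a histone demethylase (972 bp), and SEPHS2, of selenocysteine synthesis (966 bp), were among them too. IMPDH1, of guanine nucleotide synthesis (961 bp), VAV2, a guanine exchange factor (956 bp), and the non-coding LOC101928004 and LOC101928047 (951 bp) also had one. The region at PSMG4 was 94902 bp from any called region outside this class, while that at ATP2C1 was 177 bp from one. Wide regions of this class therefore included both close neighbours of calls outside the class and regions far from them.

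Gene families outside the listed genes were counted without a test. Genes with symbols of RPL or RPS followed by a digit were picked to stand for cytosolic ribosomal proteins, by symbol alone. They had an ETO-knockdown-alone region in 31 of 95 cases (32.6%), with a called region of any class in 81.1%. Genes with ZNF symbols stood at 101 of 518 (19.5%), next to the 19.7% of all protein-coding genes, with any class in 61.0%. Olfactory receptor genes, silent in most tissues, had 3 of 392 (0.765%), and 4.85% had a called region of any class.

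The number of regions in this class changed when the lists were shortened, which also removed their narrow peaks. When each knockdown list was cut to the length of its control list, keeping the widest peaks, there were 1058 (3.35% of merged regions). With all 4 lists at the shortest length there were 1672 (7.31%), and with the wider 50% of each list 1659 (9.27%). With full lists the share was 10.3%. Regions of control anti-ETO alone, 497 with full lists, numbered 841, 2133 and 244 in the same order of settings. Of the 3681 regions, 1003 (27.2%) were of this class after either shortening and 447 (12.1%) with the wider 50%.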

How the data were processed

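The deposited files were lists of peak positions, made by the authors: chromosome, start and end, with no header, score or p-value. The submitters' processing notes name fastp 0.19.5, Bowtie2 2.3.5, MACS2 2.2.5 and HOMER 4.8 and the builds hg38 and sacCer3; their roles, the threshold, the use of IgG and the pooling of replicates are not given in the sources used here. Which regions are called in one list alone depends on these choices. Depth is unknown.

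Lists were merged at 1 bp or more of overlap. Positions are hg38, counted from 1. Gene names, bodies and promoters came from RefSeq tables of GRCh38.p14 (59094 genes, 34961 promoters, with none on chromosome 8); exons and introns were not used here. Promoters overlapped by both classes compared (100) were left out of the motif test. Shares carry 95% Wilson intervals, differences Newcombe intervals, and tests are two-sided Fisher's exact tests with a threshold of 0.05, in Python 3.11.15 with scipy 1.17.1. Functions passed 8 of 8 checks on simulated intervals.

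The regions, lists, tests and gene lists were chosen with earlier results of these data known. Named genes are those of 11 fixed lists with a region in the body or within 10 kb, the 10 protein-coding genes with the most regions, the nearest gene of the 10 widest regions, and the promoters with the most RUNX matches. Alternatives were other overlaps, list lengths, widths, distances and gene sets. Those on gene starts, on regions over 1 kb from other called regions, and on width, CG content and first start of promoters were added after seeing the data. A few genes that this rule names are not reported here.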

Additional observations from a re-analysis of the deposited data

Results flagged for a closer look

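The knockdown anti-ETO list held 2 peaks on the mitochondrial chromosome, at positions 12 to 442 (431 bp) and 621 to 16552 (15932 bp), while the other 3 single-antibody lists held 0. They lie outside the chromosomes compared and were looked at because this sequence was in no comparison. Since the lists carry no signal, their height is unknown, and whether mitochondrial reads differed between the groups was not tested.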

How the results depend on the processing

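No paired analysis was possible because each group is represented by 1 list and the lists carry no replicate numbers; leaving out a replicate could not be run for the same reason. The number of ETO-knockdown-alone regions was 3915 with an overlap of at least 100 bp and 2491 with peaks up to 500 bp apart joined. It moved to 1058, 1672 and 1659 with the knockdown lists shortened, all lists of one length and the wider 50% of each list. These were 3.35%, 7.31% and 9.27% of the merged regions, beside 10.3% with full lists. The number of genes with such a region was 2254 without a flank and 6920 with 50 kb. The boundary difference from control anti-ETO alone did not pass at 2.5 kb (-3.89 points, Fisher's exact test, adjusted p = 0.092). The difference outside genes from knockdown anti-ETO with any other list passed with joined peaks (2.45 points) and with lists of one length (1.80 points). The RUNX difference did not pass with regions of 200 to 500 bp (-3.30 points). In the other 42 recomputations, direction and side of the threshold held, or counts stayed within 1.5 times. Boundary differences ranged from -11.1 to -2.39 points against knockdown anti-ETO with any other list and from 26.4 to 32.0 against knockdown anti-Flag alone. The causes were not tested.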

Other observations

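Some ETO-knockdown-alone regions lay at genes with near-identical copies, which were counted after the genes with the most regions had been seen. Within 1 kb of 466 annotated pseudogenes of mitochondrial genes lay 6 ETO-knockdown-alone regions (0.163%), 0 of the 17780 regions with knockdown anti-ETO and any other list, 2 of knockdown anti-Flag alone, and 0 of either class of control alone. Of the 6, 5 lay on chromosome 1 between positions 629344 and 634208 and 1 on chromosome 17 at 22521264 to 22521529. The knockdown anti-ETO list was also the one with calls on the mitochondrial chromosome itself. Within 1 kb of the 17 annotated 5S ribosomal RNA genes, between positions 228617395 and 228646631 of chromosome 1, lay 9 ETO-knockdown-alone regions (0.244%), 8 regions with knockdown anti-ETO and any other list (0.0450%), 1 of knockdown anti-Flag alone and 3 of control anti-Flag alone. At 443 transfer RNA genes, by contrast, the shares were 0.788% and 0.821% for the first 2 classes. No test was made of these counts, and how reads with several mapping places were treated is not given in the sources used here.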
